A study of Mus musculus with 3 samples.

Results

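The 10 genes of Fc receptor and ITAM signalling, chosen by symbol, were followed in RNA bound to the chromatin of activated mouse macrophages: Fcgr1, Fcgr2b, Fcgr3, Fcgr4, Fcer1g, Tyrobp, Trem1, Trem2, Syk and Plcg2. They are 10 of the 55536 annotated genes in the deposited tables. Each symbol was found in the transcript tables and joined by gene identifier to the gene tables. The cells were bone-marrow-derived macrophages of C57BL/6J mice that had received 100 ng/ml lipid A, the active part of bacterial endotoxin, for 30 min. Ribosomal RNA was depleted from the chromatin fraction and total RNA was sequenced. There was 1 group of 3 libraries, made from 1 µg of RNA (library 1), 250 ng (library 2) and 500 ng (library 3). Each amount occurs once and cannot be told apart from other differences between libraries, and since unstimulated cells were not analysed here, levels are described and not responses to lipid A. All 3 libraries carry the same donor record, so spreads between them may be technical.

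Fc receptors bind the constant part of antibodies and let phagocytes take up antibody-coated particles. Most activating Fc receptors and the TREM receptors have no signalling tail of their own. They rely on small membrane adaptors whose tails hold an ITAM, a motif with a pair of tyrosines that Src-family kinases phosphorylate. The kinase Syk docks on the phosphorylated motif and activates phospholipase C gamma and other enzymes, while Fcgr2b carries an inhibitory motif (ITIM) that recruits phosphatases.

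Expected counts summed over annotated genes came to 16301150, 17033725 and 16205704. Levels between genes are given in TPM, which corrects for transcript length and sums to a fixed total in each library. The median detected gene deviated by -0.37, -0.14 and 0.52 on the log2 TPM scale from its own mean in libraries 1 to 3, and all 10 genes had their highest TPM in library 3. For a gene across libraries, log2 CPM with TMM scaling, which lacks a length correction, is therefore given as well. All 8 macrophage markers were detected, which here means a mean expected count of at least 10, with a median of 52.5 ± 6.72 TPM (SD, n = 3) and Csf1r, the receptor for macrophage colony-stimulating factor, at 202 ± 46.5 TPM. In the first of 2 deposited quantifications, which is used unless the second is named, none of 7 B-cell markers and none of 9 NK and T-cell markers was detected, with summed TPM of 0.05 to 0.2 and 0.17 to 0.41, and Cd79b, Ncr1, Cd3e and Cd3g were at 0 counts. Of 10 neutrophil markers Mmp8 was detected (summed 0.88 to 2.12 TPM; 0 detected without library 2 and 2 without library 1), of 8 mast-cell and basophil markers Kit and Hdc (0.31 to 1.2 TPM; 1 without library 3), and of 6 dendritic-cell markers Zbtb46 and Clec9a (0.78 to 1.69 TPM). The second quantification detected more of these markers, namely 3 of 7 B-cell (summed 2.95 to 5.1 TPM), 3 of 9 NK and T-cell (1.48 to 2.9), 4 of 10 neutrophil (3.15 to 8.53), 3 of 8 mast-cell and basophil (1.83 to 4.45) and 5 of 6 dendritic-cell markers (3.44 to 5.97). The B-cell factor Ebf1 had 230, 159 and 191 counts there and Cd3g had 30, 49.7 and 52.5, while Cd79b stayed at 0. It detected 66.6% of all protein-coding genes. The part of RNA from other cell types in the levels was not tested.

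The 10 genes spanned a wide range of levels. By mean TPM over all transcripts, Syk stood at the 99.4 percentile and Fcgr2b at the 98.7 percentile of the 10983 detected protein-coding genes. Trem2, Fcer1g, Plcg2 and Tyrobp followed between the 79.5 and 91.5 percentiles, and Fcgr1 and Fcgr3 lay near the middle. Fcgr4 stood at the 20.4 percentile, and Trem1 was near the bottom at 1.9. All 10 were detected, against 49.9% of the 22028 annotated protein-coding genes. Trem1 passed narrowly, and 9 were detected without library 3. The median of the 10 genes was 15.7, 18.3 and 27.6 TPM in libraries 1 to 3, against 3.48, 4.45 and 6.88 TPM for all detected protein-coding genes. In bulk RNA, fewer cells that transcribe a gene and less RNA per cell cannot be told apart.

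**Figure D1:**
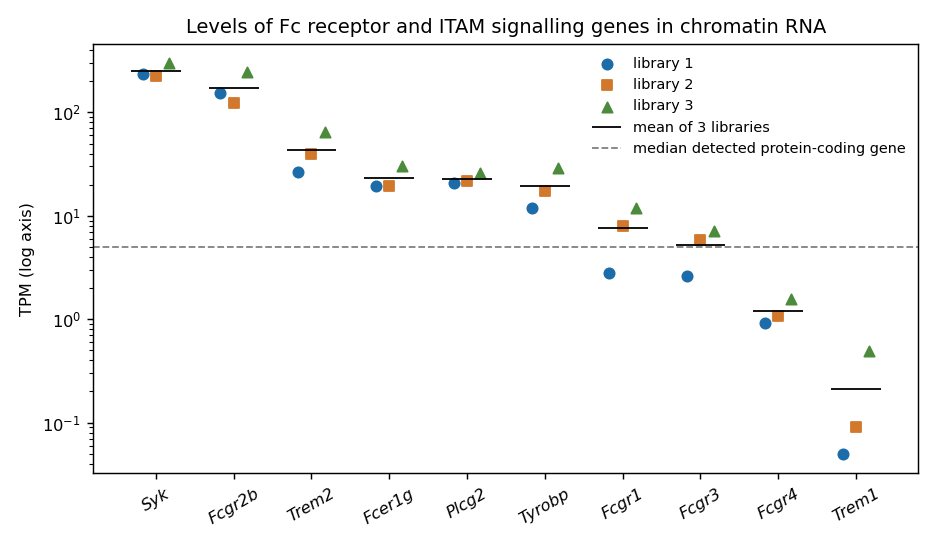
TPM (log axis) of the 10 genes in each of the 3 libraries, ordered by mean TPM; black bars are means over libraries, and the dashed line is the median over detected protein-coding genes of their mean TPM (4.98). 8 genes have means above that line, from Fcgr3 at 5.2 to Syk at 253 TPM, while Fcgr4 and Trem1 lie below it.

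Fcgr2b, the inhibitory IgG receptor (ENSMUSG00000026656.15, mm10 chr1:170958617-170976547, minus strand), had 154, 122 and 246 TPM in libraries 1 to 3, from 5375, 3674 and 5384 expected counts. Its TPM was highest in library 3 and lowest in library 2, whereas log2 CPM was 8.45, 7.81 and 8.24, highest in library 1. The antisense gene Gm38204 overlaps 3175 bases of its locus. It had 2.8, 1 and 4 expected counts, and since the strand setting is not given in the sources used here, reads in the overlap cannot be told apart by gene.

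The activating IgG receptors, which signal through Fcer1g, were much lower. Fcgr1, the high-affinity IgG receptor (chr3:96282909-96293969, minus strand), had 2.81, 8.01 and 12 TPM from 179, 449 and 430 counts, with library 1 well below the others. Fcgr3, a low-affinity receptor (chr1:171051174-171064935, minus strand), had 2.59, 5.88 and 7.13 TPM from 76, 155 and 128 counts. Library 1 was again the lowest. Fcgr4, which binds IgG2 subclasses in mice (chr1:171018920-171029761, plus strand), had 0.92, 1.08 and 1.58 TPM from 26, 27 and 26 counts, so its reads were even across libraries.

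Within each library Fcgr3 stood below Fcgr2b, with log2 TPM differences of -5.84, -4.35 and -5.09 and a mean of -5.09 ± 0.74 (SD, n = 3). The sign was the same in 3 of 3 libraries. The exact two-sided sign-flip permutation test over libraries gave p = 0.25, the smallest value that 3 libraries allow, so neither this nor any of the other contrasts below can pass 0.05. Fcgr1, Fcgr3 and Fcgr4 together summed to 6.32, 15 and 20.7 TPM in libraries 1 to 3, against 154, 122 and 246 TPM for Fcgr2b. Fcgr2b thus held 96.1%, 89.1% and 92.2% of the TPM of the 4 IgG receptors. Over protein-coding transcripts alone, an alternative chosen after seeing the data, that share was 69.3%, 53.2% and 61.4%, and the mean difference of Fcgr3 and Fcgr2b was -2.25 ± 0.44. Of the 1733 distinct 31-base words in Fcgr3 transcripts, 233 (13.4%) also occur in transcripts of Fcgr2b and in no other gene, so reads from those stretches are divided between the genes by the quantification. Of the 5609 words in Fcgr2b transcripts, 457 (8.15%) also occur in transcripts of 242 other genes, Fcgr3 sharing the most. The part of this in the Fcgr2b values was not tested.

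Most of the Fcgr2b signal lay on transcripts that are annotated as noncoding. In libraries 1 to 3 they made up 91.9%, 88.2% and 87.1% of its TPM, a mean of 89.1% ± 2.51 (SD, n = 3). The median over 8986 detected protein-coding genes with both transcript types was 44.9%, and Fcgr2b stood at the 95.9 percentile of them. Fcgr2b-205, a retained-intron transcript, held 40.9%, 37.2% and 39.5%. It follows the coding exons through the one before the alternative cytoplasmic exon and then runs 1369 bases into the intron. Fcgr2b-207, another retained-intron transcript, held 12.3%, 13.4% and 10.8% and ends in an earlier intron. Fcgr2b-206, a processed transcript that begins 397 bases before an acceptor site and covers the 3′ part of the gene, held 38.7%, 37.6% and 36.8%. The shares differed little between libraries. In chromatin-bound RNA, reads from RNA not yet spliced can count towards transcripts with intron stretches. The part of this in the shares, here and for the other genes below, was not tested. The second deposited quantification placed 88.1% ± 2.12 of Fcgr2b TPM on noncoding transcripts, against a median of 54.6% over genes, at the 91.9 percentile. It divided them otherwise, with means of 33.7% on Fcgr2b-205, 24.9% on Fcgr2b-207 and 29.6% on Fcgr2b-206.

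These 60-base windows from GENCODE M21 transcripts on mm10 show where the main noncoding transcripts of Fcgr2b leave or enter the coding splice pattern. Capitals mark the first or last bases of the intron, GT at a donor and AG at an acceptor, with 24 exon bases on the other side (chr1:170965666-170965725 for the donor and chr1:170961210-170961269 for the acceptor, minus strand).
Fcgr2b-205 donor: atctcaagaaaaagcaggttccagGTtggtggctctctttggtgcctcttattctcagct
Fcgr2b-206 acceptor: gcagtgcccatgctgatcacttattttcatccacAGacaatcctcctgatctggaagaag

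The coding transcripts of Fcgr2b differ by an exon of 141 bases (47 codons) in the cytoplasmic part. The form with this exon is known from B cells, and the form without it is the main one of myeloid cells. The exon follows the donor shown above, and it is printed in capitals between 12 bases of each neighbouring exon (chr1:170963325-170963465, minus strand).
Fcgr2b cytoplasmic exon: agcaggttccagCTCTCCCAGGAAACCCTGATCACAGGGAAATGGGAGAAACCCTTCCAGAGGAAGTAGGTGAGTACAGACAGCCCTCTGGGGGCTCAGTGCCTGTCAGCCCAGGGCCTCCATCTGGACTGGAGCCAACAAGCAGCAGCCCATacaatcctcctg
Among coding transcripts with or without the whole exon, those with it (Fcgr2b-201 and Fcgr2b-204) held 60.5%, 37.4% and 62.9% of the TPM in libraries 1 to 3, and 53.6% ± 14.1 on average. Library 2 lay on the other side of an even split from libraries 1 and 3. The second quantification gave 71.7%, 59.5% and 79.8%. Fcgr2b-201 is 3544 bases long and Fcgr2b-202, without the exon, 1462 bases, and they also differ in the length of their 3′ ends. Reads in the longer 3′ end count towards Fcgr2b-201 whether or not they touch the exon, and the part of this in the shares was not tested. The pattern of the inhibitory motif is common, with a match in the longest reading frame of 10592 of 21584 protein-coding genes (49.1%). It also matched in Fcgr1, Fcgr4, Fcer1g, Tyrobp and Plcg2, so a match alone does not set Fcgr2b apart. All 4 coding transcripts of Fcgr2b keep the motif, whose tyrosine codon is in capitals (chr1:170961071-170961088, minus strand).
Fcgr2b ITIM codons: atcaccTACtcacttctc

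**Figure D2:**
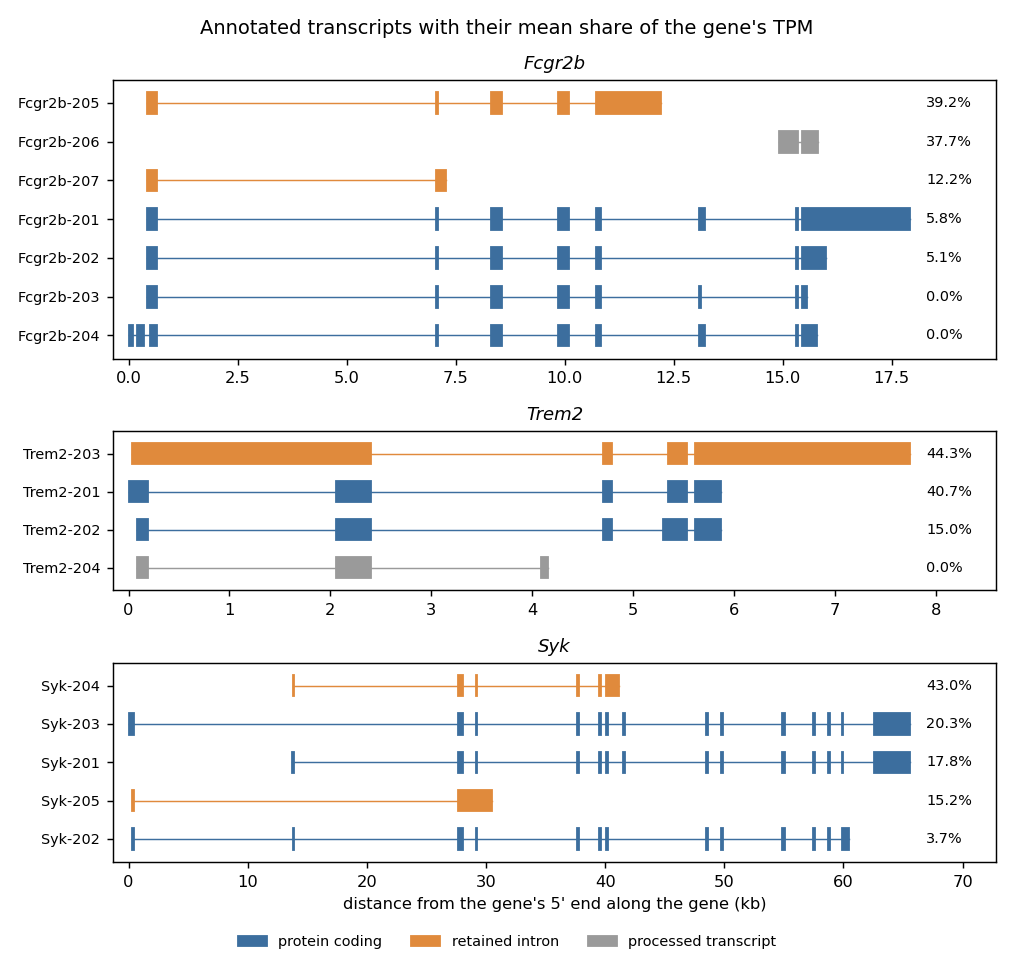
Annotated transcripts of Fcgr2b, Trem2 and Syk along each gene (kb from its 5′ end), with exons as boxes, introns as lines and the mean share of the gene's TPM over 3 libraries at the right; the shortest exons are widened slightly to be visible. The leading transcript of each gene is a retained-intron transcript, at 39.2% for Fcgr2b-205, 44.3% for Trem2-203 and 43% for Syk-204.

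Over all transcripts, the ITAM adaptors stood between Fcgr2b and the activating receptors. Fcer1g, the common gamma chain of activating Fc receptors (ENSMUSG00000058715.11, chr1:171229572-171234365, minus strand), had 19.3, 19.2 and 30.6 TPM from 201, 158 and 186 counts. Tyrobp, also named DAP12, the adaptor of the TREM receptors (ENSMUSG00000030579.10, chr7:30413760-30417585, plus strand), had 12, 17.3 and 29.2 TPM from 128, 144 and 161 counts. Its log2 CPM of 3.06, 3.14 and 3.18 gave the smallest spread among the 10 genes. Over protein-coding transcripts alone, Fcgr2b had 12.46, 14.4 and 31.64 TPM in libraries 1 to 3. Fcer1g had 13.76, 12.55 and 24.02 TPM there and Tyrobp 12.03, 17.31 and 28.28 TPM. On that scale Fcgr2b did not stand above both adaptors in libraries 1 and 2. The tandem-tyrosine codons of each adaptor are shown because they define the family. Capitals mark the tyrosine codons, which are separated by 10 codons in both, and each stretch crosses an intron on the genome (chr1:171229889-171230072 and chr7:30415670-30417382).
Fcer1g ITAM codons: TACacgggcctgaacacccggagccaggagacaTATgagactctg
Tyrobp ITAM codons: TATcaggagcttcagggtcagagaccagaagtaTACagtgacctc

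A script looked for a tyrosine, any pair of residues and leucine or isoleucine, repeated after a gap of 6 to 12 residues, in the longest annotated reading frame of 21584 protein-coding genes. The pattern was present in 1409 of them (6.53%), and among the 10 genes in Tyrobp alone. Over all complete reading frames of a gene it was present in 1436 genes (6.65%), and among the 10 genes in Fcer1g and Tyrobp. The longest frame of Fcer1g is that of Fcer1g-203, which uses a donor 74 bases further into the intron than Fcer1g-201. Its reading frame then differs, and its 92 codons end without the motif, whereas the 86 codons of Fcer1g-201 hold it. The added bases are shown after 24 bases of the shared exon, with the GT of the Fcer1g-201 donor in capitals (chr1:171230922-171231019, minus strand).
Fcer1g-203 extension: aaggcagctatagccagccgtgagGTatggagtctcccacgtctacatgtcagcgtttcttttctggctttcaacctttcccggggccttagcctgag
The ITAM-coding Fcer1g-201 held 51.5%, 41.9% and 62.7% of Fcer1g TPM in libraries 1 to 3, Fcer1g-203 held 19.7%, 23.4% and 15.7%, and the retained-intron transcript Fcer1g-202 held the rest. The second quantification gave another picture, with 21.9% ± 4.23 on Fcer1g-201 and 47.6% ± 4.12 on Fcer1g-203. The values of the quantifications did not overlap for either transcript, so the share of Fcer1g RNA that codes for the motif is uncertain.

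Tyrobp was placed almost wholly on coding transcripts. Tyrobp-202 held 95.9%, 31.6% and 31% of its TPM and Tyrobp-201 held 4.09%, 68.4% and 65.8%, so that library 1 differed from the others. Both transcripts carry the ITAM codons, but their reading frames differ before the motif. The first ITAM tyrosine is codon 92 of 114 in Tyrobp-201 and codon 118 of 140 in Tyrobp-202. In the second quantification Tyrobp-201 led in each library, at 53.6%, 69.2% and 60.5%.

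Between the adaptors the levels were close. Fcer1g exceeded Tyrobp by 0.68, 0.15 and 0.07 on the log2 TPM scale, with a mean of 0.3 ± 0.33 (SD, n = 3; exact sign-flip p = 0.25), so the mean difference was smaller than its SD, and it was 0.109 without library 1. Over protein-coding transcripts alone the mean turned to -0.17 ± 0.33. The mean log2 TPM of the adaptors exceeded that of the receptors Fcgr1, Fcgr3, Fcgr4, Trem1 and Trem2 by 2.94, 2.45 and 2.42 in libraries 1 to 3. Without the length correction, in CPM, this gap was 0.455, since the adaptors have short transcripts. The second quantification assigned more reads to both adaptors. Its counts were 3.31 times those of the first for Fcer1g and 2.79 times for Tyrobp, against a median ratio of 1.61 over all detected protein-coding genes.

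**Figure D3:**
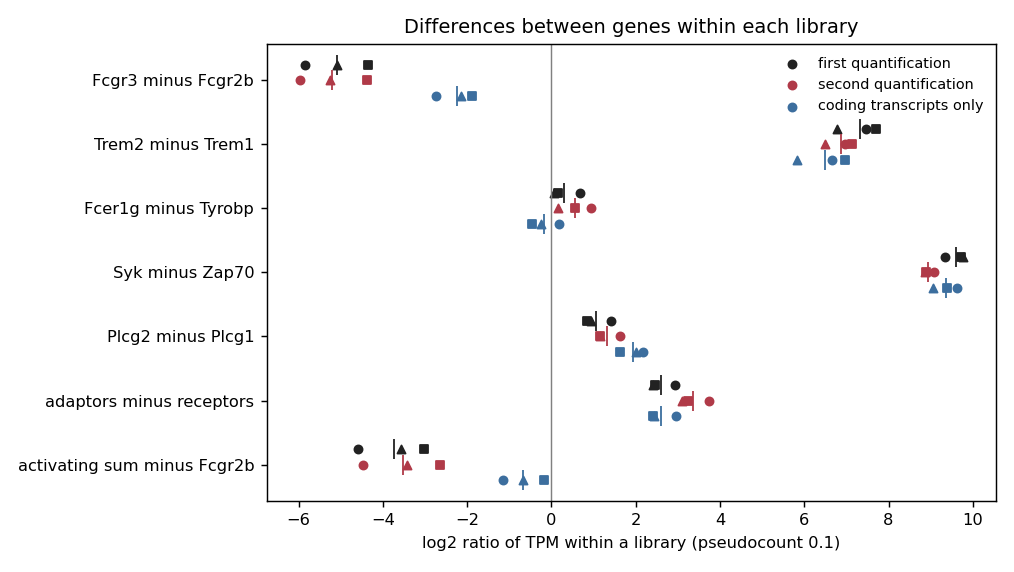
Log2 ratios of TPM between genes or gene groups within each library (circle, library 1; square, library 2; triangle, library 3) for the first quantification, the second quantification and the first one restricted to protein-coding transcripts; ticks are means. The gap of Fcgr3 below Fcgr2b is -5.09, -5.2 and -2.25 in these 3 settings, and Fcer1g minus Tyrobp changes sign in the last.

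The TREM receptors, which pair with Tyrobp, lay far apart, with Trem2 below Syk and Fcgr2b only and Trem1 last in the order of mean TPM. Trem2, a lipid-binding receptor of macrophages and microglia (ENSMUSG00000023992.14, chr17:48346401-48354147, plus strand), had 26.6, 39.6 and 64.7 TPM from 1760, 2259 and 2796 counts. Library 3 was the highest and library 1 the lowest. Trem1, which amplifies inflammatory signalling (chr17:48232768-48246924, plus strand), had 0.05, 0.09 and 0.49 TPM from 4, 6 and 21 counts. Its mean of 0.21 TPM rests on library 3 and was 0.07 without it. Trem2 exceeded Trem1 by 7.47, 7.71 and 6.78 on the log2 TPM scale, with a mean of 7.32 ± 0.48 (SD, n = 3; exact sign-flip p = 0.25; higher in 3 of 3 libraries). The genes lie 99.5 kb apart in a cluster of related receptors. There Trem3, Treml4 and Treml2 had means of 0.05, 0.04 and 0.48 TPM, and Treml1 had 8.58 ± 3.36 TPM. The second quantification gave 0.949 TPM for Treml2 and 12.9 TPM for Treml1. Trem1 is overlapped on the other strand by the pseudogene AC241601.2, with 2, 3 and 8 counts, and reads in that overlap cannot be told apart by gene either.

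The TPM of Trem2 was split between transcripts annotated as coding and a transcript annotated with a retained intron. The retained-intron transcript Trem2-203 held 43.3%, 40.1% and 49.5% of its TPM in libraries 1 to 3. By reads its share was 79.9%, 78.3% and 84%, since this transcript is 4784 bases long. Its last exon ends 7746 bases from the gene's 5′ end, against 5872 bases in both coding transcripts. Reads in that longer 3′ end count towards Trem2-203 without touching an intron, and the part of this in the shares was not tested. Trem2-203 also holds the whole first intron of 1861 bases, whose donor is shown with the first intron bases in capitals (chr17:48346572-48346631, plus strand).
Trem2-203 donor: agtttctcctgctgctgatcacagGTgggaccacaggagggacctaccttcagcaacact
At 44.3% ± 4.75 noncoding TPM, Trem2 stood at the 49.1 percentile of detected protein-coding genes with both transcript types, close to their median of 44.9%. In the second quantification it had 46.95% ± 3.59 against a median of 54.6%, at the 40.2 percentile.

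Syk, the kinase that docks on ITAMs (ENSMUSG00000021457.14, chr13:52583173-52648792, plus strand), was the highest of the 10 genes. It had 235, 227 and 297 TPM from 20271, 18102 and 14851 counts, whereas its log2 CPM was 10.36, 10.11 and 9.71, highest in library 1. Zap70, the kinase of the same family used by T and NK cells, had 0.26, 0.17 and 0.24 TPM from 7, 4 and 6 counts and did not reach the minimum for detection. In the second quantification it had 14, 18 and 13 counts and passed that minimum. The difference of Syk and Zap70 was 9.61 ± 0.23 on the log2 TPM scale (SD, n = 3; exact sign-flip p = 0.25), with Syk higher in 3 of 3 libraries.

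Noncoding transcripts made up 56.1%, 55.8% and 62.7% of Syk TPM in libraries 1 to 3, which placed Syk at the 68 percentile. In the second quantification the mean was 54% against a median of 54.6% over genes, and Syk stood at the 49.1 percentile, so a share above the median was not kept there. Syk-204, a retained-intron transcript, held 42.7%, 41.5% and 44.8%. It reads 1063 bases into the intron of 1431 bases that precedes the exon by which the Syk forms differ. Syk-205 held 13.5%, 14.3% and 17.9%. It keeps a whole intron of 1042 bases and then reads 1230 bases into the next intron, of 8345 bases. The donor that Syk-204 reads across and the first that Syk-205 reads across are shown, with the first intron bases in capitals (chr13:52623253-52623312 and chr13:52611229-52611288, plus strand).
Syk-204 donor: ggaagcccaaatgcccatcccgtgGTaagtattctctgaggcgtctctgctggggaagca
Syk-205 donor: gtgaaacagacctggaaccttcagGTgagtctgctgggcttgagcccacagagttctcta
The exon after the intron that Syk-204 reads into has 69 bases (23 codons) in the linker of the kinase, and the form that lacks it is known as SykB. It is printed in capitals between 12 bases of its neighbours (chr13:52624708-52624776, plus strand).
Syk linker exon: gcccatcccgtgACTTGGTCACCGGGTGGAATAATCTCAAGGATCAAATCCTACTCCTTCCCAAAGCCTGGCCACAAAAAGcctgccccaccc
Among coding transcripts those with the exon held 89.6%, 91.9% and 91.9% of the TPM, and 77.9% ± 0.89 on average in the second quantification. Syk-202, the only coding transcript without the exon, has 583 codons against 629 in the others. Its coding part thus differs by more than the 23 codons of the exon, and these shares do not give that of SykB itself. As in Fcgr2b, the annotated transcripts also differ elsewhere, and the part of this in the shares was not tested.

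Plcg2, the phospholipase that acts downstream of Syk in myeloid and B cells (ENSMUSG00000034330.10, chr8:117498291-117635142, plus strand), had 20.9, 21.9 and 25.9 TPM from 2283, 2173 and 1697 counts. These were the most even TPM values of the 10 genes, but log2 CPM of Plcg2 was 7.21, 7.05 and 6.58, lowest in library 3. The SD of its log2 CPM was above that of 58.5% of detected genes. The Plcg2 paralogue Plcg1, the main form of T cells, had 7.8, 12.2 and 13.4 TPM. Plcg2 exceeded Plcg1 by 1.41, 0.83 and 0.95 on the log2 TPM scale, with a mean of 1.06 ± 0.3 (SD, n = 3; exact sign-flip p = 0.25; higher in 3 of 3 libraries). Plcg2 has a single annotated transcript, as has Fcgr4, so neither gives a transcript makeup.

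**Figure D4:**
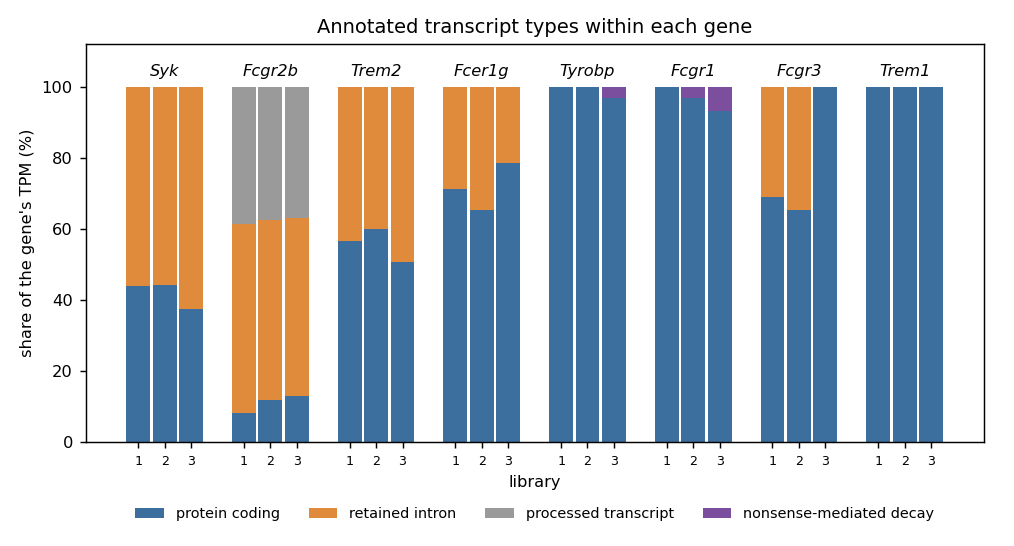
Share of each gene's TPM (%) on annotated transcript types in libraries 1 to 3, for the 8 genes with several transcripts, ordered by mean TPM. Noncoding transcripts hold 87.1% to 91.9% of Fcgr2b TPM, the largest part among these genes, and Fcgr3 has no retained-intron share in library 3.

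The remaining genes were mostly coding in the first quantification. In Fcgr3 the retained-intron transcript Fcgr3-203 held 31.2%, 34.7% and 0% of TPM in libraries 1 to 3. The mean was 21.95%, and 32.9% without library 3, while the second quantification gave 32.2%, 48% and 32.1%. In Fcgr1 a transcript annotated for nonsense-mediated decay held 0%, 3.14% and 6.76%, against 29.6% ± 8.24 in the second quantification. Both Trem1 transcripts are coding.

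By mean TPM, 9 pairs of neighbours in the order of levels were compared within libraries. The order came from the same 3 libraries, so the direction of each pair was largely set by the ranking. A pair was taken as beyond its spread when the mean log2 difference exceeded 2 SD with the same sign in each library. This held for 5 pairs, Fcgr2b over Trem2, Trem2 over Fcer1g, Tyrobp over Fcgr1, Fcgr3 over Fcgr4, and Fcgr4 over Trem1, with mean differences of 0.86 to 2.3. Syk exceeded Fcgr2b by 0.59 ± 0.31 and Fcgr1 exceeded Fcgr3 by 0.43 ± 0.32, in 3 of 3 libraries each but within 2 SD. Fcer1g, Plcg2 and Tyrobp could not be put in order, since their differences of -0.02 ± 0.23 and 0.32 ± 0.48 changed sign between libraries. Over protein-coding transcripts alone, the place of Fcgr2b above Trem2 was not kept. The means were 19.5 TPM for Fcgr2b and 23.8 TPM for Trem2, and Trem2 was higher in each library.

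Between libraries the genes did not move together. In log2 CPM, Fcgr2b, Fcgr4, Fcer1g, Syk and Plcg2 were highest in library 1, Fcgr1 and Fcgr3 in library 2, and Tyrobp, Trem1 and Trem2 in library 3. The same grouping was obtained with DESeq2 scaling. Fcgr1 had 3.54, 4.77 and 4.6 in libraries 1 to 3 and Fcgr3 had 2.31, 3.24 and 2.85, so library 1 was the lowest for both. The SD of Fcgr1 was larger than that of 90.5% of the 14396 detected genes, that of Fcgr3 than 77.1% and that of Trem1 than 98.1%, the last on 4 to 21 counts. Tyrobp and Fcgr4 lay at the 3.6 and 11.2 percentiles of spread.

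**Figure D5:**
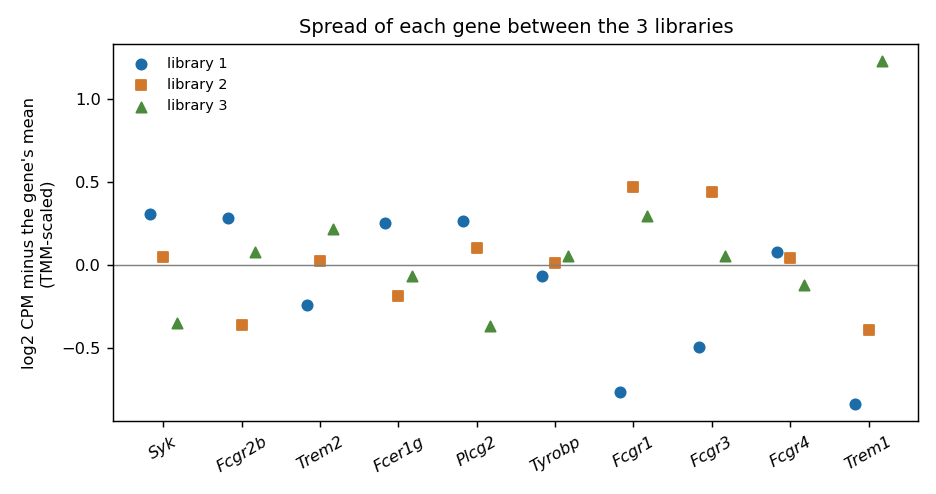
Deviation of TMM-scaled log2 CPM from each gene's mean in the 3 libraries, with genes ordered by mean TPM. Fcgr1 and Fcgr3 are low in library 1 (-0.76 and -0.49), Trem1 is high in library 3 (1.23), and Syk and Plcg2 are lowest in library 3 (-0.35 and -0.37).

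Around these genes, 64 of 89 genes on 6 lists of the pathway were detected, and 71 in the second quantification. Of all annotated protein-coding genes, 49.9% were detected in the first and 66.6% in the second. Of 14 other Fc receptors 5 were detected, led by the cytosolic antibody receptor Trim21 at 6.25 ± 0.88 TPM (SD, n = 3), the neonatal receptor Fcgrt at 3.37 ± 0.93, Fcrls at 2.75 ± 1.24 and Fcrl1 at 0.97 ± 0.19. The second quantification detected 7 of them and led with Fcgrt at 9.48 and the low-affinity IgE receptor Fcer2a at 7.44 TPM, above Trim21 at 6.72, whereas Fcer2a had 0.1 TPM in the first. The IgE receptor chains Fcer1a and Ms4a2 had 0 counts in each library, a floor of 3 counts or 0.18 to 0.19 CPM. In the second quantification Fcer1a was again at 0, but Ms4a2 had 3, 10 and 9 counts. Of 22 other receptors that are ITAM-coupled or related to the TREM receptors, 14 (63.6%) were detected. The C-type lectins Clec4d at 349 ± 78 TPM and Clec4e (Mincle) at 104 ± 49.8 TPM, which signal through Fcer1g, were far above the activating Fc receptors. Clec4n (Dectin-2) had 33 ± 11.8 TPM and Cd300c2 had 26.5 ± 2.79 TPM, while the NK receptors Klrd1 and Ncr1 were at 0 counts. The second quantification gave 666 TPM for Clec4d, 209 for Clec4e and 61 for Clec4n, and detected 15 of 22. Of 6 other adaptors 2 were detected, Hcst (DAP10) at 2.46 ± 0.84 TPM from 14, 8 and 11 counts and Cd247 at 0.72 ± 0.18 TPM, with 1 left without library 1. The second quantification detected 3, with Cd3g as the added gene, and gave Hcst 11.2 and Cd247 1.18 TPM. Cd79b and Cd3e were at 0 counts in the first.

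Of 11 other proximal kinases 7 (63.6%) were detected, against 49.9% of all annotated protein-coding genes. The Src-family kinase Lyn had 74.6 ± 15.4 TPM, Tec 68.2 ± 26.7, Csk, which restrains Src-family kinases, 39.3 ± 14.1 and Btk 15.3 ± 5.48. The second quantification detected 10 of these 11 (90.9%), against 66.6% of protein-coding genes. It gave 117 TPM for Tec, 17.7 for Src, against 1.4 in the first, and 3.06 for Yes1, against 0.06. All 23 downstream adaptors and effectors were detected, with a median of 28.4 ± 6.95 TPM, and of 42.9 ± 6.99 TPM in the second quantification. Malt1 had 246 ± 75.8, the protein kinase C gene Prkcd 219 ± 35.5, the PI3-kinase adaptor Pik3ap1 141 ± 41.5 and the membrane adaptor Lat2 122 ± 25 TPM. In the second quantification Lcp2 led this list at 535 ± 205 TPM, against 83.1 ± 24.8 in the first. All 13 inhibitors of ITAM signalling were detected as well, with a median of 7.41 ± 2.78 TPM, and of 14.3 ± 4.13 TPM in the second quantification. Inpp5d (SHIP1), the lipid phosphatase that docks on the Fcgr2b motif, had 149 ± 35.5 TPM, the ubiquitin ligases Cblb and Cbl had 49.6 ± 13 and 48.2 ± 10.6 TPM, and the membrane adaptor Pag1 had 17.3 ± 9.99 TPM. Cbl came to 186 TPM in the second quantification.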

How the data were processed

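Per the deposited file notes, the authors made all tables on build mm10 with GENCODE M21. The gene tables and first transcript tables hold expected counts and TPM, with a percent of gene abundance for each transcript, per the file headers. The second transcript tables hold estimated counts and TPM of a separate quantification, per the file headers, and were summed per gene here. The columns are laid out as RSEM and kallisto write them. The sources used here do not give tools, versions or strandedness. Expected counts are not normalised, and the authors scaled TPM to a fixed total, so TPM carries no depth.

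All 55536 gene identifiers matched GENCODE M21. The 26345 entries that name no gene (bare numbers, spike-ins and phiX) were left out, at 1.03%, 0.245% and 0.218% of expected counts by library. Genes with a mean of 10 or more expected counts were taken as detected. Levels between genes were compared as log2(TPM + 0.1), so differences of low genes are understated. Log2 CPM used TMM scaling of edgeR 4.0.16 with a prior count of 0.5 in R 4.3.3, and DESeq2 1.42.0 size factors were the alternative. With 1 group no test between conditions exists. Differences within a library were tested over the 3 libraries with an exact sign-flip permutation (two-sided), checked on simulated data, and scores over several genes were not tested. The members, lists and contrasts were chosen with earlier results of these data known. Named genes are all 10 members, the 4 of each pathway list with the highest mean TPM, up to 2 undetected ones, and genes of a contrast. The other genes named (cell type markers, the Trem cluster and genes whose value differs in the second quantification) lie outside this rule and were chosen after their values were seen.

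Transcript sequences and reading frames were read from GENCODE M21. Protein sequences were not used here, so the planned motif search ran on annotated reading frames and receptor identity was replaced by shared 31-base words. Alternatives were the second quantification, posterior mean TPM, pseudocounts of 1 and 0.01, CPM, rescaled TPM, minimums of 1, 50 and 100 counts, a mean in place of the median, and leaving out each replicate. Protein-coding transcripts alone were added after seeing the data. A count of 0 allows up to 3 counts at 95% confidence, which covers counting error only. Python 3.11.15, numpy 2.4.6, pandas 2.3.3 and matplotlib 3.10.9 were used.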

Additional observations from a re-analysis of the deposited data

How the results depend on the processing

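The direction of Fcgr3 minus Fcgr2b (-5.46 to -2.25), Trem2 minus Trem1 (5.13 to 8.14), Syk minus Zap70 (7.69 to 11.25) and Plcg2 minus Plcg1 (0.89 to 1.94, log2) held under 9 of 9 alternatives each. Fcer1g minus Tyrobp kept its direction under 8 of 9 and turned to -0.17 over protein-coding transcripts alone, where Fcer1g loses its retained-intron share. Under that alternative the summed activating receptors minus Fcgr2b came to -0.67, against -3.72 over all transcripts. The adaptors minus receptors, 2.6 as reported, came to 3.37 in the second quantification, 1.96 with a pseudocount of 1 and 0.455 in CPM. The median of the 10 genes, 4.31 on the log2(TPM + 0.1) scale, came to 4.98 in the second quantification, 6.71 with TPM rescaled over detected protein-coding genes and 3.73 as a mean. Syk noncoding share came to 54% in the second quantification, against 58.2%. Detected genes numbered 9 or 10 without each replicate and 8 at a minimum of 50 or 100 counts. The level moved by more than its SD in the second quantification for 4 of 10 genes, Fcgr4 (1.82), Fcer1g (52.5), Tyrobp (36.9) and Plcg2 (27.9 TPM). Apart from where a construction is named, the cause was not tested. Neighbouring pairs beyond their spread numbered 5 in the second quantification and 4 over protein-coding transcripts, against 5. Depth limits Trem1 and Fcgr4, with at most 27 counts per library. No paired analysis was possible because there is 1 group.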
